A study of Homo sapiens with 2 samples.

Results

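The snoRNA host genes described here were the GENCODE 44 genes named SNHG followed by a number, together with GAS5. This rule took 29 of the 62663 annotated genes on chromosomes 1 to 22, X and Y, and all 29 were annotated as long noncoding RNA (lncRNA) genes. It used the names alone and no measured value. NUDT21 CUT&Tag was available for 1 group, the human T-cell acute lymphoblastic leukemia line J.gamma1, with 2 replicates, which the methods of the study describe as independent biological replicates, and no treatment in the labels. J.gamma1 is a Jurkat derivative that lacks phospholipase C gamma 1, and it is a single line. In CUT&Tag, an antibody holds a transposase at its target on chromatin, so the readout is cut DNA and neither RNA bound by NUDT21 nor RNA level. No sample without the antibody was analysed here.

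A snoRNA host gene makes a spliced transcript whose introns carry small nucleolar RNAs (snoRNAs). The introns are trimmed to snoRNAs that guide 2′-O-methylation (box C/D) or pseudouridylation (box H/ACA) of ribosomal and small nuclear RNA, while the spliced exons of many hosts are degraded by nonsense-mediated decay. Many hosts start with a terminal oligopyrimidine tract, a C followed by pyrimidines, as ribosomal protein genes do. NUDT21 is the subunit of cleavage factor Im that recognises UGUA in RNA before a poly(A) site. Its presence at the starts and at the 3′ ends of these genes was therefore described separately.

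By RefSeq annotation, 28 of the 29 genes held at least 1 snoRNA or small Cajal body RNA within their span, and SNHG27 held 0. SNHG14, the long transcript of the imprinted Prader-Willi region, held 83, and the other genes together held 63. GAS5, named for its rise in growth-arrested cells, held 11. SNHG1 held 9, among them SNORD22 and SNORD25 to SNORD31. The genes had a median of 10 annotated transcript starts, against a median of 1 over all lncRNA genes. The median GC content from 250 bases before to 50 bases after the canonical start was 61.7%, against 49% for lncRNA genes and 63.7% for protein-coding genes.

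The first bases of the hosts are shown because the oligopyrimidine start is the sequence feature the family is known for. In the lines below, hg38 sequence on the strand of the gene runs from 20 bases before the canonical start through its first 30 bases, and capitals mark the pyrimidine tract.
GAS5, chr1:173867960-173868009, minus strand: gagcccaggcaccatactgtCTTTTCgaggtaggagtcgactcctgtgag
SNHG29, chr17:16439017-16439066, plus strand: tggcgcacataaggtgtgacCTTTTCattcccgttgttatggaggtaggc
SNHG7, chr9:136728155-136728204, minus strand: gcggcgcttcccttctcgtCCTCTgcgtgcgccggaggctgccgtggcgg
SNHG25, chr17:64145917-64145966, plus strand: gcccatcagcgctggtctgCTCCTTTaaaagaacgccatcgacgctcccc
SNHG1, chr11:62855893-62855942, minus strand: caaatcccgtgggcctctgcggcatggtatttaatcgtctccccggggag
SNHG30, chr17:35568096-35568145, plus strand: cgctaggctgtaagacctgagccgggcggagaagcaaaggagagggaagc

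GAS5 and SNHG29 began with the same 6 bases. A C at the first base followed by at least 4 pyrimidines was found at 3 of the 29 canonical starts (10.3%), GAS5 and SNHG29 among them. The share was 2.79% over lncRNA genes, 4.59% over protein-coding genes and 17.1% over the 275 protein-coding genes that hold a snoRNA. When the tract could begin within 5 bases of the annotated start, 7 hosts had one (24.1%), adding SNHG7, SNHG8, SNHG17 and SNHG25, against 19.0% of lncRNA genes and 21.9% of protein-coding genes. SNHG1 and SNHG30, whose peaks had the highest folds of the family at a start, had no tract by either definition. The search was on the strand of the gene only, and a match describes letters, not use of that start.

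To describe where NUDT21 lay, the authors' peak lists were placed on the annotation. Replicate 1 held 92722 peaks and replicate 2 held 66671 on these chromosomes. Each peak carried a fold, the enrichment at its summit over a control level, with a list median of 3.95 in replicate 1 and 4.23 in replicate 2. Folds were ranked within each list, and the fold percentile is the percent of peaks in that list with a lower fold. Read totals are unknown, but the fold and p-value of a peak together returned the fragments at its summit, with a median of 30 in replicate 1 and 20 in replicate 2. They also returned a control level, the number of fragments expected there, with medians of 6.0 and 3.90. In replicate 1 these solutions needed the fragments scaled by 0.921, and in replicate 2 by 1. MACS scales in this way where a control library is supplied, so the fold may be relative to such a library. None is described among the methods given for CUT&Tag. As a check of the line's label, promoter peaks were found in both replicates at 4 of 6 T lineage marker genes and also at 4 of 6 B lineage marker genes, so these peaks did not separate the lineages. CD3E and CD2 were the T lineage genes without one. CD3D and CD3G had the same folds, 4.96 in replicate 1 and 7.38 in replicate 2, so a single peak may count for both. The share over all protein-coding genes was 57.0%.

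NUDT21 peaks were frequent at the starts of snoRNA host genes. A promoter peak, with its nearest edge within 3000 bp of any transcript start, was found in both replicates for 22 of the 29 genes, or 75.9% (95% Wilson interval, 57.9% to 87.8%, counting error only). The same held for 28.0% of all lncRNA genes, 57.0% of protein-coding genes and 32.2% of all genes. Replicate 1 alone gave 26 hosts and replicate 2 gave 22, and every host with a promoter peak in replicate 2 also had one in replicate 1. Of 18866 lncRNA genes, 7214 had one in replicate 1, 5507 in replicate 2 and 5274 in both, so most were nested there too. Counting peaks over the gene or up to 1000 bp past its 3′ end as well left the number at 22, against 31.7% of lncRNA genes and 35.2% of all genes. With 1 group and no contrast, these shares are a description and no test was run.

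Hosts have more annotated starts than most lncRNA genes, so a peak has more chances to fall near one. With the canonical start alone, 21 hosts had a promoter peak in both replicates, against 27.0% of lncRNA genes. Among lncRNA genes with at least 10 starts the share was 34.3%, and 13 of the 15 hosts with as many starts had a peak. Among lncRNA genes with a start window of at least 50% GC it was 47.5%, and 21 of 28 such hosts had a peak. Protein-coding genes that hold a snoRNA came nearest to the hosts, at 66.5%. The 62 other lncRNA genes that hold an annotated snoRNA had a share of 33.9%. These last classes were set by GENCODE snoRNA genes on the strand of the host, not by the RefSeq snoRNAs counted above, and GENCODE 44 holds none of the GAS5 snoRNAs that way. The part of start number and GC content in the shares was not tested beyond these values.

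Summits also lay close to the starts. In 16 of the 29 hosts (55.2%) a promoter peak had its summit within 500 bp of the canonical start in both replicates, compared with 10.9% of lncRNA genes and 32.6% of protein-coding genes. The share was 45.8% for protein-coding genes that hold a snoRNA (95% Wilson interval, 40% to 51.7%), within the hosts' interval of 37.5% to 71.6%. This count was added after the data were seen. In 11 of the 16, the nearest summit lay upstream of the canonical start in both replicates. No share over other genes was set beside this count. Among the 11, the SNHG10 summits lay 7 and 6 bp downstream of another annotated start of the host. Those of SNHG29 lay 10 and 11 bp downstream of one. In 5 hosts, SNHG4, SNHG10, SNHG15, SNHG20 and SNHG29, the nearest summits of the replicates lay within 10 bp of each other.

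**Figure D1:**
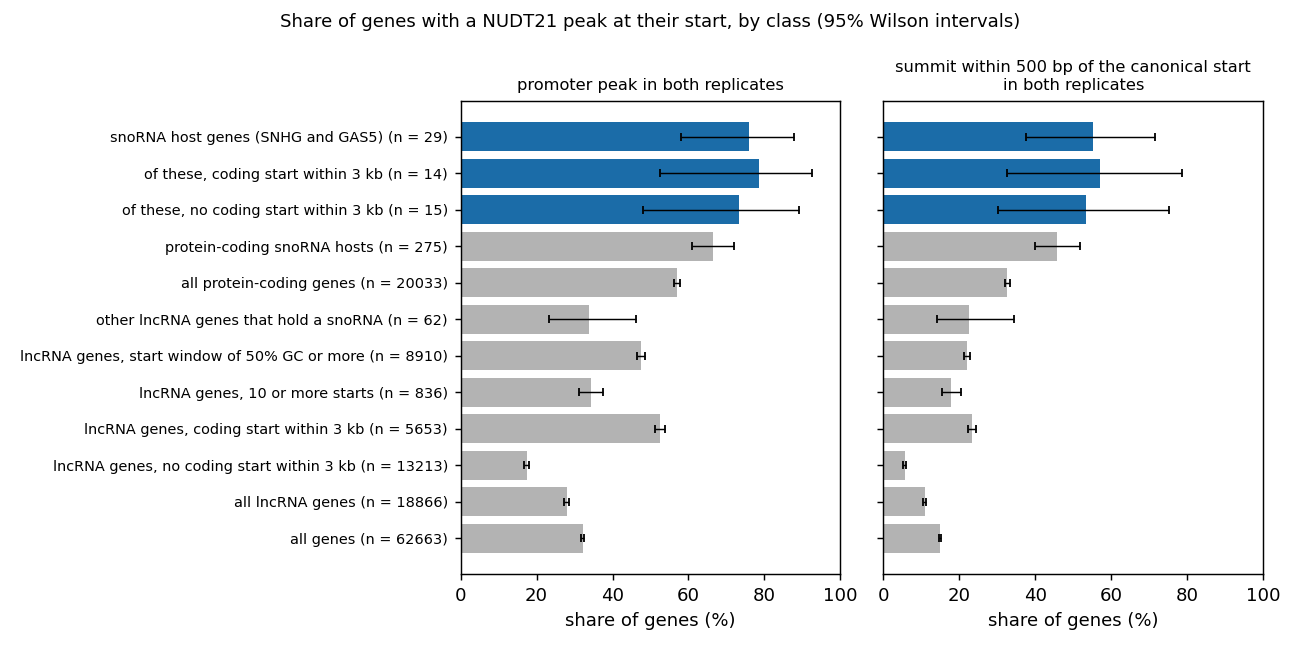
Share of genes in percent with a promoter peak in both replicates (left) and with a summit within 500 bp of the canonical start in both (right), for snoRNA host genes in blue and other gene classes in grey, with 95% Wilson intervals that cover counting error only. The hosts, at 75.9% and 55.2%, stood above all lncRNA genes, at 28.0% and 10.9%, and their interval is wide because there are 29 of them.

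The strongest promoter peaks of the hosts ranked high in both lists, as those of protein-coding genes did. The strongest promoter peak of each host had a median fold percentile of 82.2 in replicate 1 (n = 26) and 89.3 in replicate 2 (n = 22). Hosts without a protein-coding start within 3000 bp had medians of 68.6 and 89.6, and hosts with one had 90.2 and 88.9. All genes with a promoter peak had medians of 76.6 and 72.6. All lncRNA genes with a promoter peak had medians of 71.7 and 67.6, and protein-coding genes had 82.4 and 77.9. Protein-coding genes that hold a snoRNA had 87.4 and 83.7, above the hosts in replicate 1 and below them in replicate 2. When genes lacking a promoter peak in either replicate were left out, the medians were 89.6 and 89.3 for the 22 hosts, 82.1 and 69.5 for lncRNA genes and 88.1 and 78.4 for protein-coding genes. Across the 22 hosts, folds in the replicates were related with a Spearman's rho of 0.844, compared with 0.755 over 5274 lncRNA genes and 0.804 over 11425 protein-coding genes. Both replicates come from 1 line, and the points share annotation windows.

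The strongest peak of a host was often not the one at its canonical start. The peak with its summit nearest to the canonical start was also the strongest in both replicates in 11 hosts. When this nearest peak stood for each gene, the hosts' medians were 64.0 and 70.7, against 60.3 and 55.7 for lncRNA genes and 72.9 and 63.9 for protein-coding genes. Protein-coding genes that hold a snoRNA had 78.7 and 73.5, above the hosts in both replicates. Hosts with at least 10 starts had 53.7 and 48.9, against 57.2 and 47.4 for lncRNA genes with as many starts. Hosts with a start window of at least 50% GC had 64.9 and 67.4, against 63.7 and 57.4 for such lncRNA genes. The position of each strong peak is therefore given with its fold.

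**Figure D2:**
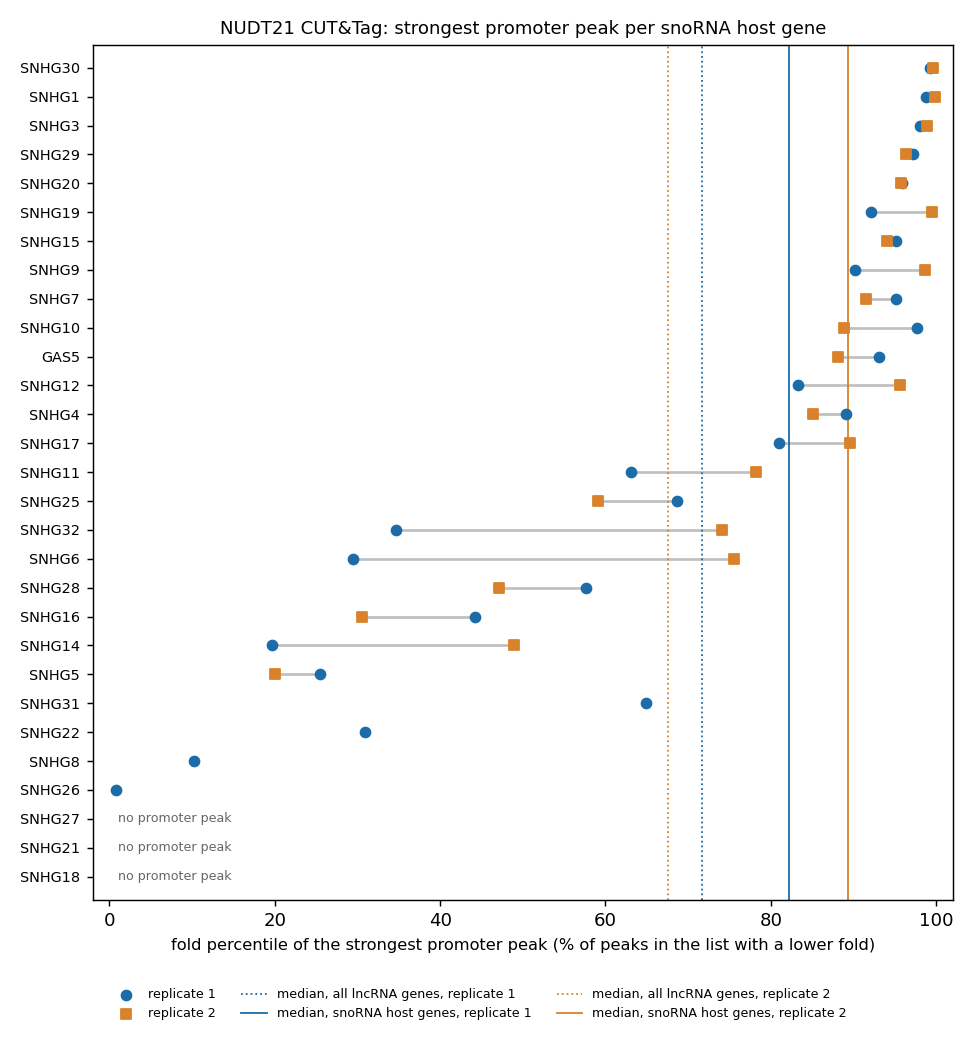
Fold percentile of the strongest promoter peak for each of the 29 host genes in replicate 1 (circles) and replicate 2 (squares), with medians of the hosts (solid lines) and of all lncRNA genes (dotted lines). SNHG30 and SNHG1 lie above 98 in both replicates, SNHG5 lies at 25.5 and 20, and SNHG18, SNHG21 and SNHG27 have no promoter peak.

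SNHG30, the host of SNORD7, had the highest mean fold percentile. Its peaks at chr17:35567217-35568484 in replicate 1 and chr17:35567771-35568530 in replicate 2 had folds of 13.9 and 14.3. There were 53 fragments over a control level of 2.58 in replicate 1, and 36 over 1.59 in replicate 2. The summits lay 13 bp upstream and 78 bp downstream of the canonical start, so this peak sat on the start itself. The nearest protein-coding start, that of SLFN14, was 7284 bp from the replicate 1 summit.

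SNHG1, a host of box C/D snoRNAs, came next. The peak across its start, chr11:62855573-62857592 in replicate 1 and chr11:62855568-62857572 in replicate 2, had folds of 12.5 and 16.7, with 67 and 55 fragments over control levels of 4.0 and 2.34. Its summits lay 98 and 283 bp upstream of the canonical start. SNHG1 faces SLC3A2, which encodes the heavy chain of amino acid transporters, and both summits lay within 37 bp of an annotated SLC3A2 start. A second pair of peaks lay past the 3′ end of SNHG1, with summits 391 and 402 bp beyond it and folds of 12 and 11.5. High peaks therefore flanked the 3.98 kb gene, and no assigned summit lay between its start and its 3′ end. A further peak, assigned in replicate 1 only, had a fold of 5.48 upstream of the start.

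SNHG15, the host of SNORA9, had the same summit base in both replicates, 332 bp downstream of its canonical start and 8 bp from another annotated start. The folds were 8.15 and 7.64, from 105 and 62 fragments over control levels of 11 and 7.24. No protein-coding start lay within 3000 bp of the gene's starts. The 121 bases around that summit are shown as the place where the replicates agreed to the base, beside the same window of SNHG29, whose summits differed by 1 bp. Sequence is on the strand of the gene, and the capital is the replicate 1 summit.
SNHG15, chr7:44986569-44986689, minus strand: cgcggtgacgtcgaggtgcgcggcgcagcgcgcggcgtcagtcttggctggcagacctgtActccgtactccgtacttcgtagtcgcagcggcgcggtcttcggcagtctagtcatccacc
SNHG29, chr17:16438772-16438892, plus strand: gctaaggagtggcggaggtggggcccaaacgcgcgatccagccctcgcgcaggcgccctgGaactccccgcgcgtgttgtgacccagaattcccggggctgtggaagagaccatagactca

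Both windows were rich in CpG, with 19 CpG in SNHG15 and 11 in SNHG29, and their GC contents were 66.9% and 66.1%. SNHG29, the host of SNORD49A, SNORD49B and SNORD65, had folds at that summit of 9.61 in replicate 1 and 7.40 in replicate 2, from 145 and 60 fragments. In replicate 2 its strongest promoter peak was another one, with its summit 5056 bp downstream of the canonical start and a fold of 8.55. In replicate 1 a peak at 4852 bp had a fold of 7.99, so both places carried a peak in each replicate.

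GAS5 had the most fragments of any start peak in the family. The peak chr1:173867607-173868881 of replicate 1 held 208 fragments at its summit, and chr1:173867636-173868754 of replicate 2 held 113. The control levels there were also the highest, 25 and 16.7, so the folds were 7.41 and 6.44. By fold GAS5 ranked at percentiles 93.1 and 88.1, whereas by −log10 q it ranked at 99.4 in both lists. A second GAS5 peak lay inside the gene, with summits 5411 and 5410 bp downstream of the canonical start and folds of 7.38 and 5.92. It lay past the snoRNAs of the gene and 105 bp from a start of the antisense gene GAS5-AS1 in replicate 1.

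**Figure D3:**
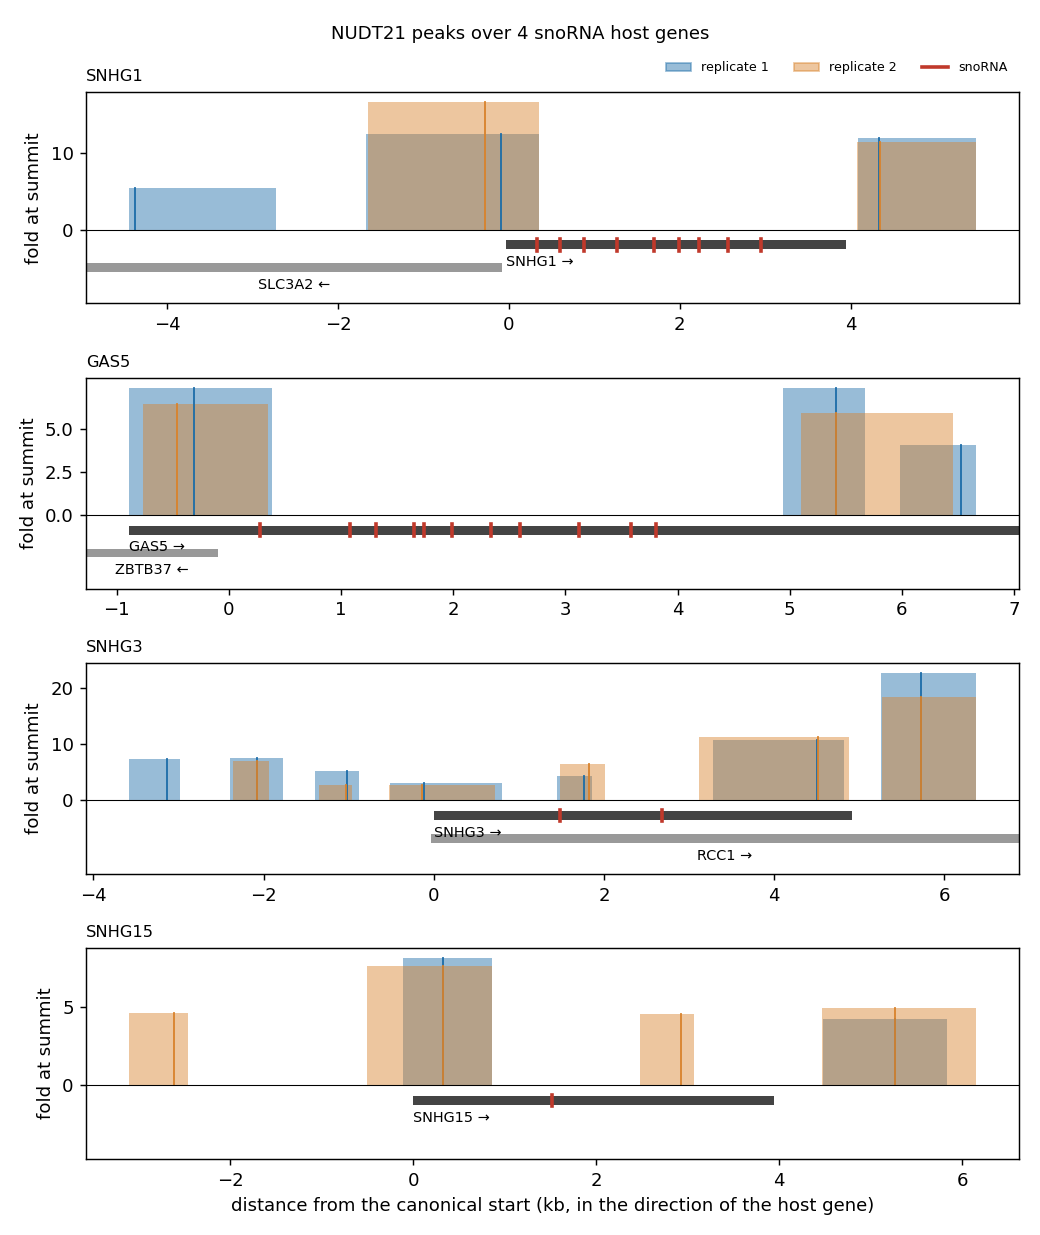
NUDT21 peaks of replicate 1 (blue) and replicate 2 (orange) over 4 host genes, with distance from the canonical start in kb along the gene on the horizontal axis and fold at the summit (vertical lines mark summits) on the vertical axis; dark bars are the hosts, grey bars the neighbouring protein-coding genes and red ticks the snoRNAs. The SNHG1 peaks flank the gene, GAS5 has a start peak and an internal peak, and the highest SNHG3 peak, at folds of 22.6 and 18.4, lies past its 3′ end inside RCC1.

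SNHG3, the host of SNORA73A and SNORA73B, had its weakest peaks at the start and its strongest at the end. The peaks nearest its canonical start had summits 119 and 144 bp upstream, with folds of 3.08 and 2.73. The peak that counted as its strongest promoter peak had folds of 10.7 and 11.2, but its summits lay 4503 and 4518 bp downstream, within reach of a start by the edge of the peak only. The replicate 1 summit was 406 bp from a start of RCC1, which encodes the chromatin-bound exchange factor for the GTPase Ran and shares an annotated start with SNHG3 on the same strand. The mean fold percentile of SNHG3 was 98.5 with this peak, 40.9 with promoters of 1000 bp and 13 when the peak nearest to the start was used.

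SNHG20, SNHG19 and SNHG9 had strongest peaks away from their canonical starts in 1 or both replicates. For SNHG20, the host of SCARNA16, the folds of 8.57 and 8.23 belonged to summits 2778 and 2901 bp upstream, and the peaks at the start had folds of 2.85 and 3.50. SNHG19, the host of SNORD60, lay inside a single peak of 31010 bp in replicate 1, with a fold of 7.11 and its summit 145 bp upstream of the start. In replicate 2 the same stretch held a peak of 8006 bp with a fold of 13.7, whose summit lay 276 bp from a start of the GTPase gene RAB26, and a peak of 11736 bp with a fold of 6.19 at SNHG19. SNHG9, the host of SNORA78, lay in a peak of 12941 bp with a fold of 6.69 in replicate 1. In replicate 2 its strongest peak, with a fold of 10.8, had its summit 5870 bp upstream and 513 bp from a start of NDUFB10, which encodes a subunit of respiratory complex I. A separate replicate 2 peak with a fold of 8.65 had its summit 273 bp downstream of the SNHG9 start. The lengths are far from typical, as 95% of peaks were shorter than 3079 bp in replicate 1 and 2790 bp in replicate 2. The third host with so long a strongest peak in both replicates was SNHG7, at 9723 and 4362 bp.

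Among hosts with a promoter peak in both replicates, SNHG5, SNHG14 and SNHG16 had the lowest fold percentiles averaged over the replicates. SNHG5, the host of SNORD50A and SNORD50B, had folds of 3.19 and 3.31. It was not low in fragments, with 75 and 41, but the control levels at its start were 21.0 and 11.7. SNHG14 had folds of 3.0 and 4.19 at peaks that did not overlap and lay over 100 kb from its canonical start, near other annotated starts of this 442 kb gene. SNHG16, the host of SNORD1A to SNORD1C, had folds of 3.78 and 3.66 at its start, with summits 154 and 335 bp upstream.

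The remaining hosts with a promoter peak in both replicates were SNHG4, SNHG6, SNHG7, SNHG10, SNHG11, SNHG12, SNHG17, SNHG25, SNHG28 and SNHG32. Their strongest folds ran from 3.31 (SNHG6) to 10.2 (SNHG10) in replicate 1 and from 4.13 (SNHG28) to 8.19 (SNHG12) in replicate 2. The 10.2 of SNHG10 and the 6.55 of its replicate 2 peak were at summits 10340 and 10367 bp inside the gene, near a distal start. SNHG6 and SNHG32 changed rank most between replicates, from 29.4 to 75.6 and from 34.7 to 74.1. SNHG17, which hosts 4 SNORA71 copies, had 10 assigned peaks in replicate 1 and 9 in replicate 2, over a gene with 61 annotated starts.

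A promoter peak was found in replicate 1 and not in replicate 2, whose list was shorter, in 4 hosts. SNHG31, the host of SNORA70I, had the highest fold of these, 4.54, from 122 fragments over a control level of 24.0. The fold was 3.36 at SNHG22, whose annotated SCARNA17 begins at the canonical start itself, and 2.66 at SNHG8, the host of SNORA24. It was 2.08 at SNHG26, the host of SNORD93, which placed that peak at percentile 0.785. The genes SNHG18, SNHG21 and SNHG27 had no assigned peak in either replicate. SNHG18 hosts SNORD123 and SNHG21 hosts SCARNA15.

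Control levels at host starts were high compared with all peaks of the lists, and start peaks of other genes were not compared. The peaks nearest to the start had a median control level of 10 in replicate 1 and 5.29 in replicate 2, against 6.0 and 3.90 over each list. Levels above the 95th percentile of the list occurred in 4 hosts in replicate 1 (GAS5, SNHG31, SNHG8 and SNHG5) and in 2 hosts in replicate 2 (GAS5 and SNHG5). The fragments at these peaks had medians of 50 and 28. At GAS5 and SNHG5, fragments and control levels were thus both high.

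**Figure D4:**
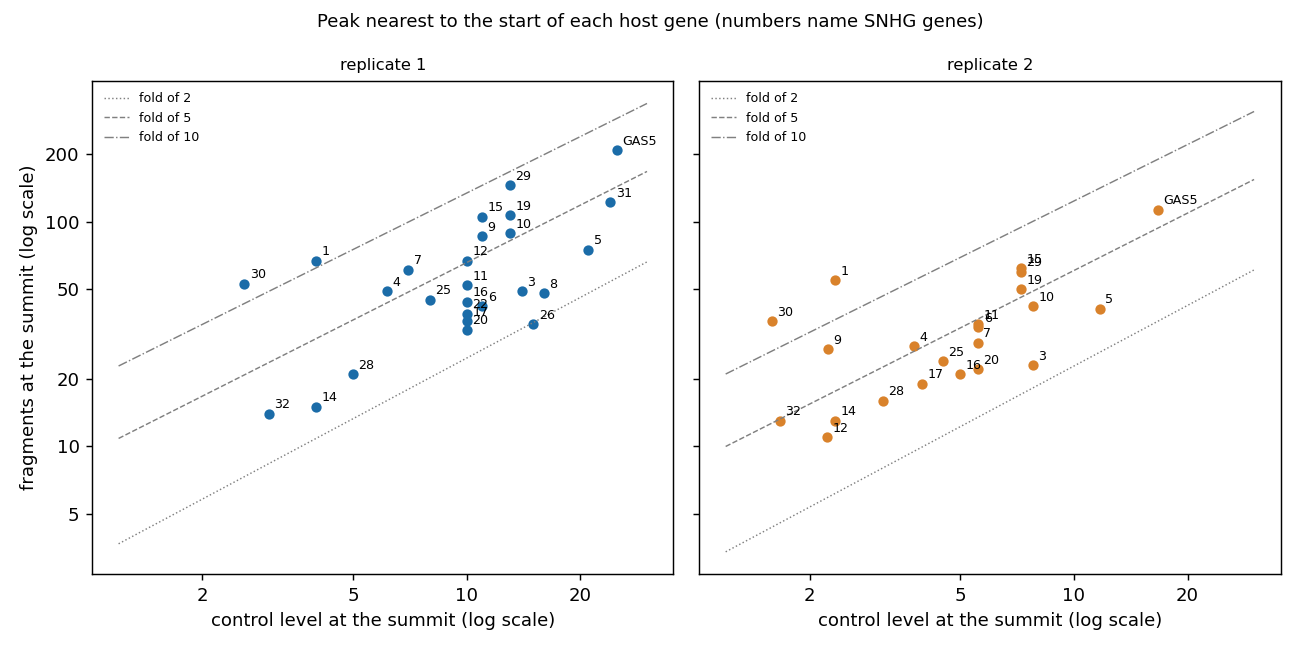
Fragments at the summit against the control level at the summit, both on log scales, for the promoter peak nearest to the canonical start of each host (numbers are SNHG numbers) in replicate 1 (n = 26) and replicate 2 (n = 22), with grey lines of equal fold. GAS5 lies at the top right with 208 and 113 fragments, and SNHG30 lies at the left with 53 and 36 fragments over control levels of 2.58 and 1.59.

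In 8 hosts, a protein-coding gene on the opposite strand had a start within 1000 bp of the host's, and in each pair the nearest starts diverged. These were GAS5 with ZBTB37 (87 bp between the starts), SNHG1 with SLC3A2 (51 bp), SNHG9 with RPS2 (54 bp), SNHG10 with GLRX5 (161 bp), SNHG18 with SEMA5A (95 bp), SNHG19 with TRAF7 (293 bp), SNHG22 with ACAA2 (12 bp) and SNHG31 with BARD1 (498 bp). RPS2 encodes a ribosomal protein, GLRX5 an iron-sulfur cluster protein, ACAA2 a mitochondrial thiolase, SEMA5A a semaphorin, TRAF7 a ubiquitin ligase, BARD1 the partner of BRCA1 and ZBTB37 a zinc finger protein. A peak between such starts cannot be assigned to either gene.

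The stretches between the nearest starts are shown for the 5 closest pairs, from the first base of the neighbour to the first base of the host on the strand of the host, with both first bases in capitals.
SNHG22 and ACAA2, chr18:49813953-49813965, plus strand: CgtcctgtgggcG
SNHG1 and SLC3A2, chr11:62855953-62856004, minus strand: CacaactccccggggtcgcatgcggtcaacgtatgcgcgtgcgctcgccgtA
SNHG9 and RPS2, chr16:1964841-1964895, plus strand: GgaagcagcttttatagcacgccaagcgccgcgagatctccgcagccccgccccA
GAS5 and ZBTB37, chr1:173867995-173868082, minus strand: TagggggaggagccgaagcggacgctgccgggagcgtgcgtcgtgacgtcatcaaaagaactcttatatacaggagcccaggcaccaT
SNHG18 and SEMA5A, chr5:9546075-9546170, plus strand: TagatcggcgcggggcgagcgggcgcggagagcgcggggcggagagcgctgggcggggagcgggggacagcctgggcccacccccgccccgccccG

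These stretches held 2, 9, 6, 8 and 16 CpG, in that order. The SNHG18 stretch had the highest GC content, 84.4%, and SNHG18 had no assigned peak in either replicate. Of the 8 hosts with a facing gene, 5 had promoter peaks in both replicates, as did 17 of the 21 others. With any protein-coding start within 3000 bp, on either strand, the counts were 11 of 14 hosts with one and 11 of 15 without. Among lncRNA genes the shares were 52.6% with such a start and 17.4% without. The hosts without a coding start nearby thus stood further from their lncRNA counterparts than the hosts with one, and the difference was not tested. These counterparts were unlike the hosts, with a median of 1 start and 46.3% GC, against 10 starts and 59.7% GC. With a coding start nearby, lncRNA genes had 1 start and 58.7% GC, and hosts had 8 starts and 62.5% GC.

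Summits were set against both kinds of start. Of the peaks nearest to a host's canonical start, 6 of 26 in replicate 1 and 6 of 22 in replicate 2 had the summit closer to a protein-coding start than to any start of the host. At GAS5 the replicate summits lay 81 and 49 bp from a ZBTB37 start. At SNHG4, which shares a start with MATR3 on the same strand, they lay 10 and 2 bp from a start of MATR3, which encodes a nuclear matrix protein. At SNHG30, SNHG15 and SNHG29 they lay closer to the host.

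**Figure D5:**
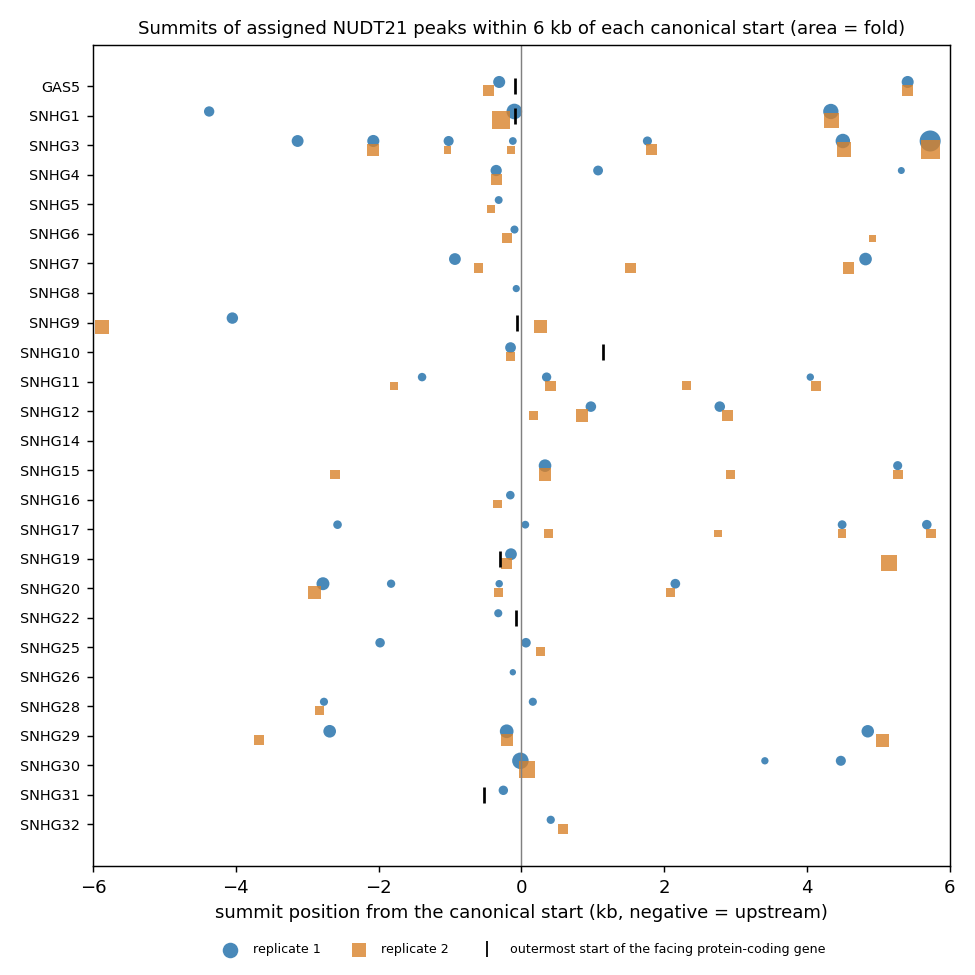
Position of each assigned peak summit within 6 kb of the canonical start, in kb (negative is upstream), for the 26 hosts with a promoter peak in replicate 1; circles are replicate 1, squares replicate 2, marker area is proportional to fold and black ticks mark the outermost start of a facing protein-coding gene. Most hosts have a summit within 500 bp of the start, SNHG20 has its highest fold near 2.8 kb upstream, and SNHG14 has no summit in the window.

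Peaks at the 3′ ends were counted by a narrower rule than promoter peaks. It took summits near a single end, so the counts cannot be compared with those at the starts. In 8 hosts both replicates had a summit no more than 1000 bp from the gene's 3′ end (SNHG1, SNHG3, SNHG11, SNHG16, SNHG17, SNHG19, SNHG25 and SNHG29), against 7.85% of lncRNA genes. Several of these genes are short, so that the peak at the end was also within reach of a start. Outside promoters, 3 hosts had such a peak in both replicates, SNHG3, SNHG16 and SNHG29, against 2.58% of lncRNA genes. Classes closer in start number, GC content or snoRNA content were not set beside these end counts, so they do not show a trait of the hosts.

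The SNHG3 end peak was the highest in the family. Its folds were 22.6 and 18.4, with 109 and 57 fragments, and its summits lay 814 and 812 bp past the end of SNHG3. Both summits lay inside the RCC1 gene. The nearest RCC1 start was 1629 bp from the replicate 1 summit, so the peak cannot be given to SNHG3 alone.

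At SNHG16 the end peak exceeded the start peak. Its folds were 7.17 and 10.4 with summits 545 and 492 bp past the 3′ end, against 3.78 and 3.66 at the start. The end summits lay 412 and 465 bp from a start of an unnamed gene, nearer than the SNHG16 end, so the peak cannot be given to SNHG16 alone. SNHG16 spans 113 kb by its longest transcript and had 33 assigned peaks in replicate 1 and 23 in replicate 2, most of them over the gene body. SNHG29 spans 41.5 kb and had 18 and 16. Other genes start inside both spans, so the body peaks cannot be given to the hosts alone. In replicate 1, a body summit lay 356 bp from a start of LRRC75A in SNHG29. Another lay 318 bp from a start of ST6GALNAC2 in SNHG16. SNHG29 had 2 end peaks in each replicate, with folds of 4.56 and 6.34 before the end and 5.32 and 4.59 past it. At SNHG15 a further peak lay wholly past the gene's 3′ end in both replicates, with folds of 4.23 and 4.98 and summits 1329 and 1328 bp past it. SNHG14 also had a gene body peak in both replicates, with folds of 3.17 and 3.32.

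The last bases of 3 hosts are shown because UGUA, read as TGTA in DNA, is the letters NUDT21 recognises in RNA. The 80 bases end at the canonical 3′ end, and capitals mark TGTA and the poly(A) signal AATAAA.
GAS5, chr1:173858997-173859076, minus strand: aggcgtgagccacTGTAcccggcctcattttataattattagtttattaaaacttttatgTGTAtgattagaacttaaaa
SNHG3, chr1:28510813-28510892, plus strand: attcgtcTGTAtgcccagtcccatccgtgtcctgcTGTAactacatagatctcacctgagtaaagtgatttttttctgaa
SNHG1, chr11:62851978-62852057, minus strand: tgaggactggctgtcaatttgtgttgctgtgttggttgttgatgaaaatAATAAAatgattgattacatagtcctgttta

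TGTA was found in the last 100 bases of 11 of the 29 hosts (37.9%), close to the 38.4% of lncRNA genes and below the 51.9% of protein-coding genes. AATAAA was found in 13 hosts (44.8%), against 38.7% of lncRNA genes and 65.8% of protein-coding genes. Both were counted on the strand of the gene only. Of the 8 hosts with an end peak in both replicates 2 had a TGTA, and 9 of the 21 others did. SNHG3 had 2 TGTA and an end peak, GAS5 had 2 TGTA and no peak within 1000 bp of its 3′ end, and SNHG1 had none and an end peak in both replicates.

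Summits within the snoRNAs were also counted. These RNAs are short, and the share of summits expected from their length was not computed, so the counts do not show avoidance. Of 124 assigned peaks in replicate 1, 2 had the summit within a snoRNA, SNORA71A and SNORA71C of SNHG17, which are near-identical copies. Of 94 assigned peaks in replicate 2, 0 did. Reads from such copies may map to either, so these 2 summits are uncertain.

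The genes that make and assemble snoRNA particles carried peaks as well. Promoter peaks in both replicates, found at 57.0% of protein-coding genes, were found at all 4 box C/D core genes (FBL, NOP56, NOP58 and SNU13). NOP58, itself a snoRNA host, had folds of 9.75 and 14.4. For box H/ACA particles 3 of 4 did, with DKC1, the pseudouridine synthase, at 13.7 and 9.90 and NOP10 in replicate 1 only. GAR1, another core gene, was called in both but had folds of 2.42 and 3.90, at percentile 4.85 in replicate 1. Of 9 assembly factors 8 did, with the chaperone genes RUVBL2 at 10.4 and 15.3 and PIH1D1 at 13.8 in both, and NAF1 in replicate 1 only. Low in the lists were ZNHIT6, at 2.26 and 3.06, and SHQ1, at 3.69 and 2.91. All 10 genes of nonsense-mediated decay did, from 4.09 for UPF3B to 17.4 for SMG6 in replicate 1.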

How the data were processed

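CUT&Tag for NUDT21 was measured in 2 replicates of J.gamma1. Per the submitters' processing notes and the study's methods, fastp cleaned the reads, Bowtie2 2.2.5 placed them on hg38, Picard dropped duplicates and MACS3 3.0.1 called peaks in each replicate. The deposited lists give each peak's fold enrichment at the summit (a ratio), used here for ranking. They also give −log10 p and −log10 q values, which the authors took from MACS3. Which gene annotation the authors used for CUT&Tag is not given in the sources used here. Peaks were placed with Python 3.11.15 on GENCODE 44 (hg38), and the snoRNAs of the 29 genes came from RefSeq (GRCh38.p14, matched by position without strand). The classes of other snoRNA-holding genes used GENCODE snoRNA genes on the same strand. Fragments and control levels were solved from fold and −log10 p through the MACS pileup formula, and 100% of 2000 sampled peaks per list were solved. Placing and solving were tested on simulated data. Absolute depth is unknown.

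The members and lists were chosen with earlier results of these data known. All 29 genes were accounted for. Values were given for the 8 with the highest and the 3 with the lowest mean fold percentile, for those with a promoter peak in 1 replicate, no peak, or a peak outside promoters in both, and for facing neighbours. Sequences were read from hg38. No test was run and no p-value was computed, as there was 1 group. Alternatives covered peak thresholds, distances, summits, starts, ranking and each replicate.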

Additional observations from a re-analysis of the deposited data

Results flagged for a closer look

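Peaks on sequences other than chromosomes 1 to 22, X and Y were left out of the values above, and no sample without the antibody was analysed here to set them against. Replicate 1 held 4440 of them and replicate 2 held 1861. The start of SNHG32, in the major histocompatibility region of chromosome 6, had an exact 100-base match at 4 places on alternate sequences, and 0 peaks lay within 3000 bp of these matches in either replicate. No other host start had an exact match there. SNHG32 had 14 and 13 fragments at its promoter summits, and the part of the alternate copies in these values was not tested.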

How the results depend on the processing

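Promoter peaks in both replicates were found in 22 hosts. This number was 19 to 22 under the other planned settings and 16 with summits within 500 bp of the canonical start, a setting chosen after seeing the data. It fell to 13 when each list held only the 10000 peaks of highest −log10 p, and was 11 of 15 over hosts with no protein-coding start within 3000 bp. Any assigned peak gave 14 and 11 under these last settings. Single replicates gave 22 to 26 hosts for both counts. Gene-end peaks were in 8 hosts, in 4 with the 10000 peaks and in 3 with a gene-end distance of 500 bp. They were in 5 over hosts with no coding start nearby, and single replicates gave 8 to 10. Shares over other genes are not set beside these alternative counts here. With the 10000 peaks, whether the hosts still stood apart from other genes is therefore not shown.

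The mean of the hosts' median fold percentiles over the replicates was 85.7, and 82.2 to 89.3 in single replicates. It was 95.4 with the 10000 peaks, 78.8 with promoters of 1000 bp, 79.1 over hosts with no coding start nearby, 91.1 when −log10 q ranked the peaks and 67.4 when the peak nearest to the start stood for each gene. With that peak, 9 of 22 hosts moved by more than the spread between replicates. Facing coding neighbours numbered 8 within 1000 bp, 9 within 3000 bp and 8 within 500 bp. No paired analysis was possible because the study has 1 group. The median of 20 fragments per summit in replicate 2 limits what a missing peak there can show.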
